A study of Homo sapiens with 9 samples.

Results

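Ascorbate (vitamin C) handling was examined through 7 genes of the 25540 in the deposited table: the sodium-coupled ascorbate transporter genes SLC23A1 and SLC23A2 with their relative SLC23A3, the facilitative hexose transporter genes SLC2A1 and SLC2A3, and the omega-class glutathione transferase genes GSTO1 and GSTO2. They were listed by name for their known roles, without a threshold on their values, but with earlier results of these data known. The cells were CAL-1, an established human line. It comes from BPDCN (blastic plasmacytoid dendritic cell neoplasm), an acute leukemia whose cells resemble interferon-producing dendritic cells. RNA sequencing gave 9 libraries in 3 groups of 3: NTC, whose genotype is labelled WT, and KHSRPi#1 and KHSRPi#2, both labelled as KHSRP knockdown, made by CRISPR interference. The labels give neither the guides nor the construct that carries them, do not say what the numbers 1 and 2 stand for, name no treatment or time for any group, and give all libraries 1 shared batch. The series title names SLC23A1 beside KHSRP, so the question put to these genes was whether their mRNA levels moved when KHSRP was reduced.

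Cells take up vitamin C by separate routes. The reduced form, ascorbate, enters through the sodium-coupled carriers SVCT1 (encoded by SLC23A1, best known from intestine, kidney and liver) and SVCT2 (encoded by SLC23A2, widely expressed and known from blood cells), whereas the oxidised form, dehydroascorbate, enters through the glucose carriers GLUT1 (SLC2A1) and GLUT3 (SLC2A3) and is reduced back to ascorbate inside the cell by glutathione and by reductases such as the products of GSTO1 and GSTO2. SLC23A3 encodes a related protein that is not established as an ascorbate carrier. Ascorbate is a cofactor of iron-dependent dioxygenases, among them the TET enzymes that oxidise methylated cytosine in DNA, which is why its uptake is studied in leukemia. KHSRP encodes a protein that binds AU-rich elements of mRNAs and recruits the machinery that degrades them.

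Values are TPM, a share of each library's transcripts scaled by transcript length, so levels of different genes can be set side by side. KHSRP itself, the targeted gene, stood at 253, 244 and 216 TPM in NTC replicates 1 to 3, at 35.1 TPM in each KHSRPi#1 library, and at 35.8, 33.7 and 36.5 TPM in the KHSRPi#2 libraries. Its relative FUBP1 averaged 188 TPM in NTC and 306 TPM in knockdown, a log2 difference of 0.70 (limma adjusted p = 0.000905, and 4.3e-06 with the term described next). The replicate 3 library of every group stood apart from replicates 1 and 2 on the first principal component (38.3% of the variance), so the members' tests of both knockdown groups against NTC are given without and with a term for those libraries. Of 13 plasmacytoid dendritic cell markers 11 were tested. LILRA4 averaged 0.881 TPM, and IL3RA, a defining marker of BPDCN, was listed at 0 in every library. Whether IL3RA mRNA was absent or its reads were not assigned was not tested. The summed level of the 13 markers ran from 6585 to 7216 TPM in NTC, from 7294 to 7580 in KHSRPi#1 and from 7112 to 7528 in KHSRPi#2. NCAM1, listed among T and NK cell markers but also known as a marker of BPDCN (CD56), averaged 80.2 TPM. The other markers of T, NK, B and epithelial cells were low or at 0 (CD3D, CD8A and EPCAM were listed at 0), PAX5 at 3.13 TPM and KRT8 at 1.96 TPM being the most abundant of the B cell and epithelial lists. Of the monocyte and conventional dendritic cell markers, FCGR3A was listed at 0, CD1C averaged 212 TPM and LYZ 62.1 TPM. The summed level of the 6 monocyte and conventional dendritic cell markers overlapped between groups, at 218 to 313 TPM in NTC, 227 to 307 in KHSRPi#1 and 218 to 296 in KHSRPi#2. In bulk RNA, a change in the number of cells that express a gene and a change in RNA per cell cannot be told apart.

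The 7 genes covered a wide range of levels. Averaged over the 9 libraries, GSTO1 was the most abundant at 121 TPM, above 88.7% of the tested genes, followed by SLC2A1 at 78.8 TPM, SLC23A2 at 33.7 TPM and SLC2A3 at 11.6 TPM. SLC23A1 averaged 2.61 TPM, SLC23A3 1.39 TPM and GSTO2 0.248 TPM. From GSTO1 down to SLC2A3, and from SLC2A3 to SLC23A1, the lowest library of the higher gene lay above the highest library of the next. SLC23A1 and SLC23A3 overlapped in the NTC group, where SLC23A3 ran from 1.13 to 1.96 TPM and SLC23A1 from 1.33 to 1.56. In the knockdown groups the lowest SLC23A1 value, 2.44 TPM, was above the highest SLC23A3 value, 1.81 TPM. Within these genes, SLC23A2, SLC2A1 and GSTO1 held most of the signal of their kind. In NTC, SLC23A2 held 91.6% ± 0.908 of the summed SLC23A TPM, SLC2A1 held 86.2% ± 3.15 of the SLC2A1 and SLC2A3 sum, and GSTO1 held 99.8% ± 0.116 of the GSTO sum (mean ± SD, n = 3).

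**Figure D1:**
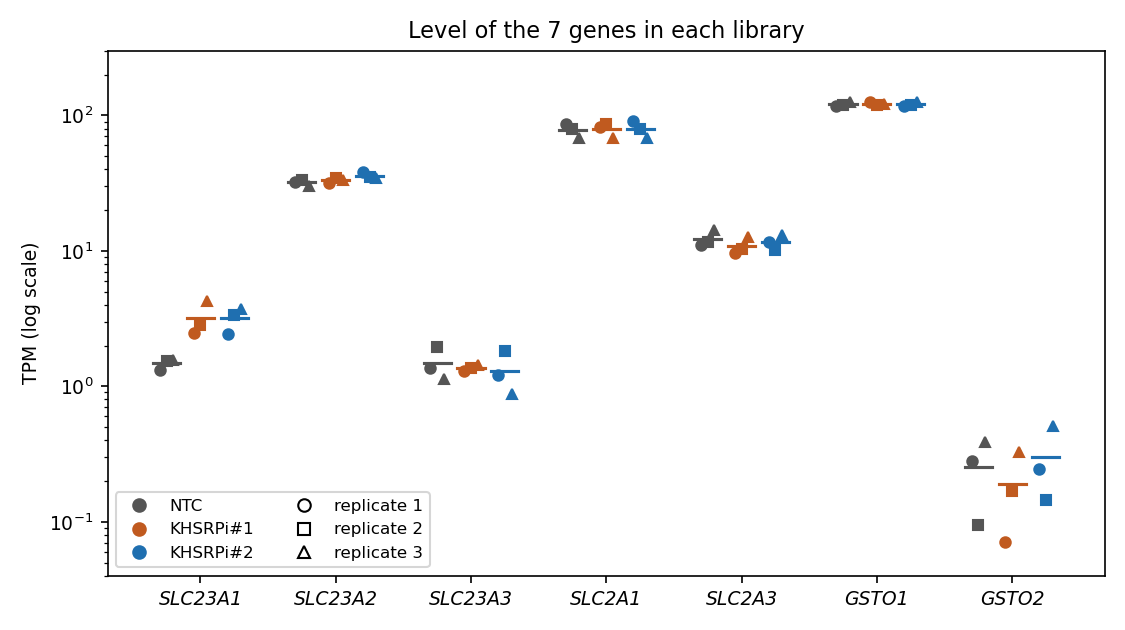
TPM of the 7 genes on a log axis in each of the 9 libraries; colours mark the groups, symbols the replicate numbers and bars the group means. SLC23A1 is the only gene whose 6 knockdown points all lie above its 3 NTC points.

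SLC23A1, the gene of the intestinal and renal type ascorbate carrier, was about 2 times as high in the knockdown groups. Its TPM was 1.33, 1.54 and 1.56 in NTC replicates 1 to 3, 2.46, 2.85 and 4.29 in KHSRPi#1, and 2.44, 3.37 and 3.70 in KHSRPi#2. Every knockdown library was above every NTC library, and replicate 3 was the highest library within each group. Group means ± SD were 1.47 ± 0.130 TPM in NTC, 3.20 ± 0.961 in KHSRPi#1 and 3.17 ± 0.650 in KHSRPi#2 (n = 3 each), so the knockdown means were 217% and 215% of NTC. The exact permutation test of 6 knockdown against 3 NTC libraries gave a two-sided p of 0.0238. Over all tested genes, 3.10% had all 6 knockdown libraries above all 3 NTC libraries; SLC23A1 was 1 of the 6 tested members to do so.

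Across all 10939 tested genes, limma on log2(TPM + 1) gave SLC23A1 a log2 fold change of 0.74 for the mean of both knockdown groups against NTC (SE 0.14, 95% interval 0.42 to 1.06). The pseudocount of 1 makes this smaller than the ratio of TPM. The limma adjusted p, with Benjamini-Hochberg adjustment over the 10939 genes, was 0.167, above the threshold of 0.05. None of the 6 tested members was called in this contrast, where 0.0823% of the tested genes were (9 genes). With a term for the replicate 3 libraries the same estimate had an SE of 0.11 and a limma adjusted p of 0.00616, and SLC23A1 was the only member called, in a fit that called 1.76% of the tested genes. In fits with the term that left out 1 library in turn SLC23A1 was called in 8 of 9; without NTC replicate 3 its limma adjusted p was 0.0621, and the genes called in all fell from 192 to 34. Within the replicate 3 libraries the log2 difference was 0.96 (1 library per group, no test), and within replicates 1 and 2 it was 0.63, with a limma adjusted p of 0.0870.

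Both knockdown groups showed the same size of difference for SLC23A1. The log2 fold change was 0.74 in KHSRPi#1 (95% interval 0.37 to 1.11, limma adjusted p = 0.422) and 0.74 in KHSRPi#2 (0.37 to 1.11, limma adjusted p = 0.396). In each of these contrasts 0.0548% of the tested genes and no member were called. With the replicate 3 term the limma adjusted p became 0.0247 for KHSRPi#1, where 0.676% of the tested genes were called, and 0.0210 for KHSRPi#2, where 0.804% were. The KHSRPi#1 call held in 5 of 9 fits that left out 1 library and was lost without NTC replicate 1 or 3 or KHSRPi#1 replicate 2 or 3 (limma adjusted p up to 0.139). The KHSRPi#2 call held in 6 of 9 and was lost without NTC replicate 3 or KHSRPi#2 replicate 2 or 3 (limma adjusted p up to 0.113). KHSRPi#2 minus KHSRPi#1 gave SLC23A1 a log2 difference of 0.0011 with a 95% interval of -0.37 to 0.37, which still allows a difference between the groups of up to 0.37 on this scale. Between the knockdown groups limma called 0% of the tested genes, and 115 genes had an unadjusted p under 0.05. The knockdown groups were compared with the same 3 NTC libraries, so their differences from NTC are not independent.

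**Figure D2:**
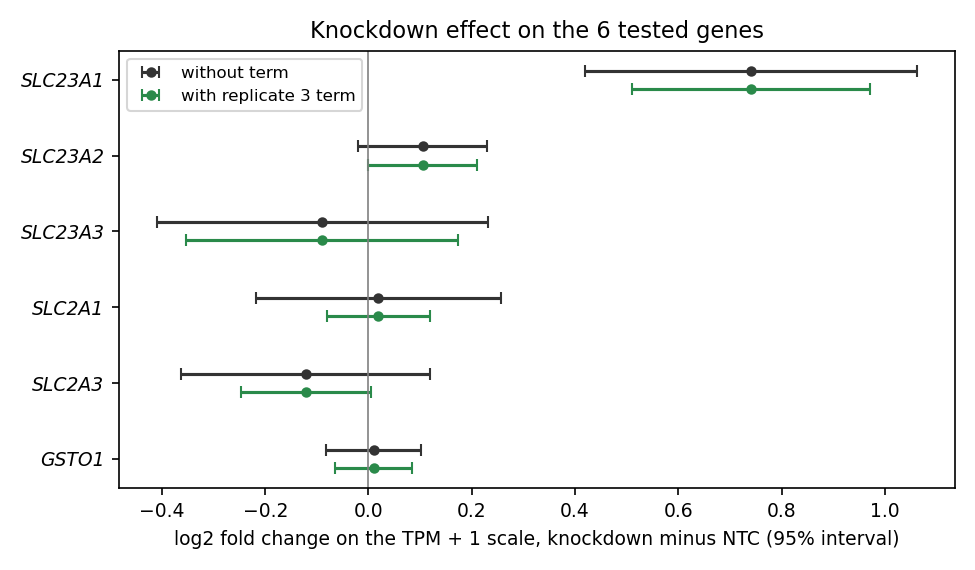
Log2 fold change of the mean of both knockdown groups against NTC for the 6 tested genes, on the log2(TPM + 1) scale, with 95% intervals from limma without and with a term for the replicate 3 libraries. The interval of SLC23A1 lies above 0 in both fits, and the intervals of the other 5 genes include 0 in both fits.

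The read support for SLC23A1 was modest. TPM gives no read numbers, but the SLC23A1 values of the 9 libraries, set against the spacing of low TPM values in each library, fit whole numbers of reads to within 0.05 of a read, and the smallest such numbers are used here. A solution of this kind was found for 1348 of 1711 genes with a mean TPM of 0.5 to 3 (78.8%). It gave 45, 77 and 97 reads in NTC replicates 1 to 3, 111, 134 and 207 in KHSRPi#1, and 127, 112 and 139 in KHSRPi#2. The exact Poisson 95% intervals, which cover counting error only, reached at most 1.92 TPM in NTC and went no lower than 2.02 TPM in the knockdown libraries. The counting intervals of the NTC and knockdown libraries therefore did not overlap. Counting error alone gave coefficients of variation of 6.95% to 14.9%, while the observed coefficient of variation was 8.83% in NTC, 30.1% in KHSRPi#1 and 20.5% in KHSRPi#2.

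**Figure D3:**
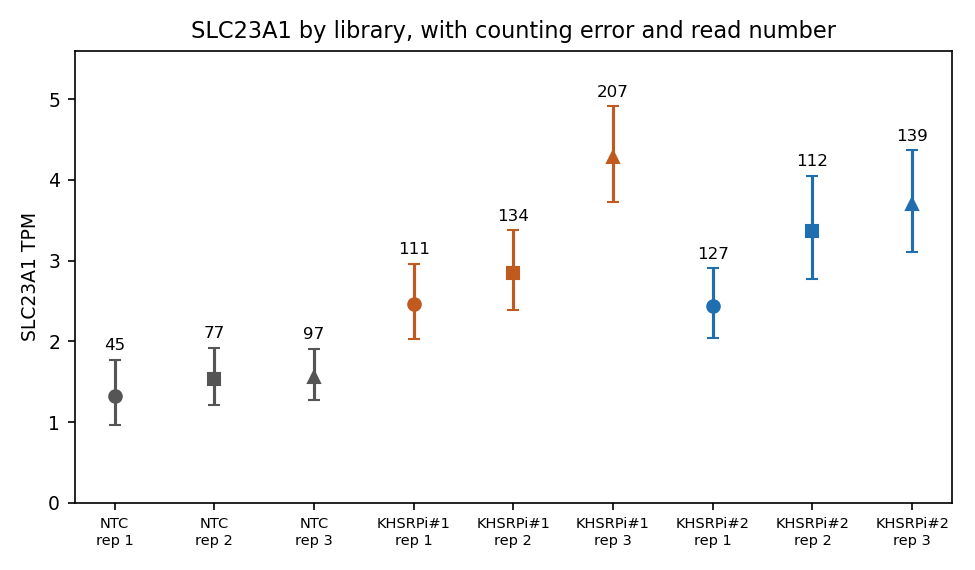
SLC23A1 TPM in each library with exact Poisson 95% intervals; the number above each point is the inferred number of reads. The NTC intervals end at or below 1.92 TPM and the knockdown intervals begin at or above 2.02 TPM.

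SLC23A1 lies on chr5:139367196-139384553 of GRCh38 (GENCODE 29), on the minus strand. Its 3' end overlaps PAIP2, a gene on the opposite strand that encodes a regulator of poly(A)-binding protein, over 2525 bases, but the exons of the genes share 0 bases. The sources used here do not say whether strand entered the counting, so reads from unspliced PAIP2 RNA cannot be told apart from SLC23A1 reads there. PAIP2 averaged 211 TPM in NTC and 216 TPM in the knockdown libraries, with a log2 difference of 0.04 (limma adjusted p = 0.935, and 0.680 with the replicate 3 term). MZB1, a B-lineage and plasmacytoid dendritic cell gene that begins upstream of SLC23A1 with a gap of 2927 bases, averaged 213 TPM in NTC and 227 TPM in the knockdown libraries, with a log2 difference of 0.09 (limma adjusted p = 0.834, and 0.342 with the term). The other neighbours within 50000 bases were MATR3, PROB1, SPATA24 and DNAJC18, and none of those tested was called in either fit; their log2 fold changes ran from -0.02 to 0.07. Of SLC23A1 and its tested neighbours, only SLC23A1 was called, in the fit with the replicate 3 term. That fit called 1.76% of all tested genes, so few tested neighbours without a call is the common outcome.

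SLC23A1 was the only member called against NTC, in the fit with the replicate 3 term and not in the fit without it. The 250 bases upstream of its RefSeq start are therefore shown. This start differs from the outer end of the GENCODE span given above, and the window lies inside that span. The RefSeq sequence on GRCh38.p14, 5' to 3' on the minus strand, has its CpG dinucleotides in capitals:
SLC23A1, chr5:139383298-139383547: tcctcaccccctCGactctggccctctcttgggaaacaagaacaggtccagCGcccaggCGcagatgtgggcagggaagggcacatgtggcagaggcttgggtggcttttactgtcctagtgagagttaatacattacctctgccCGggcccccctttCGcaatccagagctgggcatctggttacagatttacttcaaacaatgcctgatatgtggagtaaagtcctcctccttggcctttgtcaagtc
The window has 5 CpG dinucleotides. Those of the other members in the table have 2 (SLC23A3), 14 (GSTO1), 24 (SLC2A1) and, for separate starts of GSTO2, 20 and 11, and the median over the 35116 windows of the same length is 11. Whether CpG number is related to the differences between groups was not tested.

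The genes whose log2(TPM + 1) followed SLC23A1 most closely over the 9 libraries were HLA-DQA1, a class II antigen presentation gene (Pearson r 0.98), NIT2, which encodes an omega-amidase (0.98), and LETMD1 (0.97). These correlations share the libraries, their groups and the replicate 3 offset, and are given as a description. HLA-DQA1 averaged 62.8 TPM in NTC and 75.5 TPM in the knockdown libraries, a log2 difference of 0.26 (limma adjusted p = 0.199, and 0.00710 with the replicate 3 term). NIT2 and LETMD1 were called in neither fit.

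SLC23A2, the ascorbate carrier gene with the higher mRNA level in these cells, was not called. It was at 32.4, 33.5 and 30.3 TPM in NTC, at 31.5, 34.7 and 33.6 TPM in KHSRPi#1, and at 38.0, 35.3 and 34.4 TPM in KHSRPi#2. All 3 KHSRPi#2 libraries were above all NTC libraries, and KHSRPi#1 overlapped NTC. The share of all tested genes that separate KHSRPi#2 from NTC in this way was not counted. The log2 fold change of the mean of both groups was 0.10 (95% interval -0.02 to 0.23), with a limma adjusted p of 0.691, and of 0.289 with the replicate 3 term. For KHSRPi#2 alone it was 0.16 (0.01 to 0.30, limma unadjusted p = 0.0347, limma adjusted p = 0.690, and 0.211 with the term), and KHSRPi#2 minus KHSRPi#1 was 0.11 (-0.04 to 0.25). The exact permutation test of 6 against 3 libraries gave p = 0.119, and the interval allows a difference of up to 0.23 on the log2 scale. SOD2, a mitochondrial superoxide dismutase gene, followed SLC23A2 most closely (r 0.98), ahead of HMGXB3 and PSME4 (both 0.95).

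Set against its family, SLC23A1 remained the smaller part. Its share of the summed TPM of SLC23A1, SLC23A2 and SLC23A3 was 4.22% ± 0.485 in NTC, 8.40% ± 2.17 in KHSRPi#1 and 7.89% ± 1.85 in KHSRPi#2 (SD, n = 3). The NTC shares, 3.78% to 4.74%, did not overlap with the knockdown shares, 5.86% to 10.9%. These shares rest on the same SLC23A1 values as above and are not a separate result. Per library SLC23A2 exceeded SLC23A1 by 19.4 to 24.4 times in NTC, by 7.84 to 12.8 times in KHSRPi#1 and by 9.31 to 15.6 times in KHSRPi#2. SLC23A2 mRNA was therefore the larger in every library, also after knockdown.

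SLC23A3, the relative without an established substrate, was low and showed no called difference. It was at 1.38, 1.96 and 1.13 TPM in NTC, at 1.29, 1.37 and 1.43 TPM in KHSRPi#1, and at 1.22, 1.81 and 0.880 TPM in KHSRPi#2. The groups overlapped, and NTC replicate 2 was the highest library. The log2 fold change was -0.09 (95% interval -0.41 to 0.23, limma adjusted p = 0.910, and 0.737 with the replicate 3 term), or 0.04 without NTC replicate 2, and the exact permutation test gave p = 0.560. Its values fit 34 to 101 reads per library, as many as SLC23A1 in the NTC group (221 and 219 reads in all).

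SLC2A1, the gene of GLUT1, was the most abundant transporter gene of the set and did not separate the groups. It was at 86.0, 79.9 and 68.2 TPM in NTC, at 82.2, 86.4 and 68.1 TPM in KHSRPi#1, and at 90.7, 79.9 and 67.9 TPM in KHSRPi#2. The groups overlapped fully, and replicate 3 was the lowest library in each. The log2 fold change of knockdown against NTC was 0.02 (95% interval -0.22 to 0.26, limma adjusted p = 0.975), narrowing to -0.08 to 0.12 with the replicate 3 term (limma adjusted p = 0.856), and the exact permutation test gave p = 0.798. SLC2A1-AS1, an antisense RNA gene that overlaps SLC2A1 by 128 exon bases, averaged 1.52 TPM.

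SLC2A3, the gene of GLUT3, was likewise not called. It was at 11.1, 11.6 and 14.3 TPM in NTC, at 9.68, 10.4 and 12.6 TPM in KHSRPi#1, and at 11.7, 10.1 and 13.1 TPM in KHSRPi#2. The groups overlapped, with replicate 3 the highest library in each. The log2 fold change was -0.12 (95% interval -0.36 to 0.12, limma adjusted p = 0.824), and -0.12 (-0.25 to 0.0041, limma adjusted p = 0.302) with the replicate 3 term. Without the term it was -0.017 when NTC replicate 3 was left out and -0.19 when NTC replicate 1 was. The exact permutation test gave p = 0.369. SLC2A14, the closest relative of SLC2A3 and a neighbour in the genome, averaged 0.00363 TPM, so few reads were assigned to it.

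The genes of the dehydroascorbate carriers separated the replicate 3 libraries from the others, and not the knockdown groups from NTC. In the fit with the term, SLC2A1 fell by 0.30 on the log2 scale in replicate 3 (SE 0.05, limma adjusted p = 0.000607) and SLC2A3 rose by 0.29 (SE 0.06, limma adjusted p = 0.00328). These were the only members called, in a contrast that called 30.3% of the tested genes, so such a call is common here. For SLC23A1 the difference was 0.30 (limma adjusted p = 0.0529); it was 0.18 without KHSRPi#1 replicate 3 (limma adjusted p = 0.346), 0.41 without NTC replicate 3 (0.0447), and was called in 4 of 14 alternatives. SLC23A2, SLC23A3 and GSTO1 were not called in this contrast. The ratio of SLC2A1 to SLC2A3 was 6.92 to 8.50 in replicates 1 and 2 of the 3 groups and 4.75, 5.42 and 5.19 in replicate 3 of NTC, KHSRPi#1 and KHSRPi#2. The replicate 3 ratios lay below those of all other libraries. The labels give no difference between replicate 3 and the rest.

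**Figure D4:**
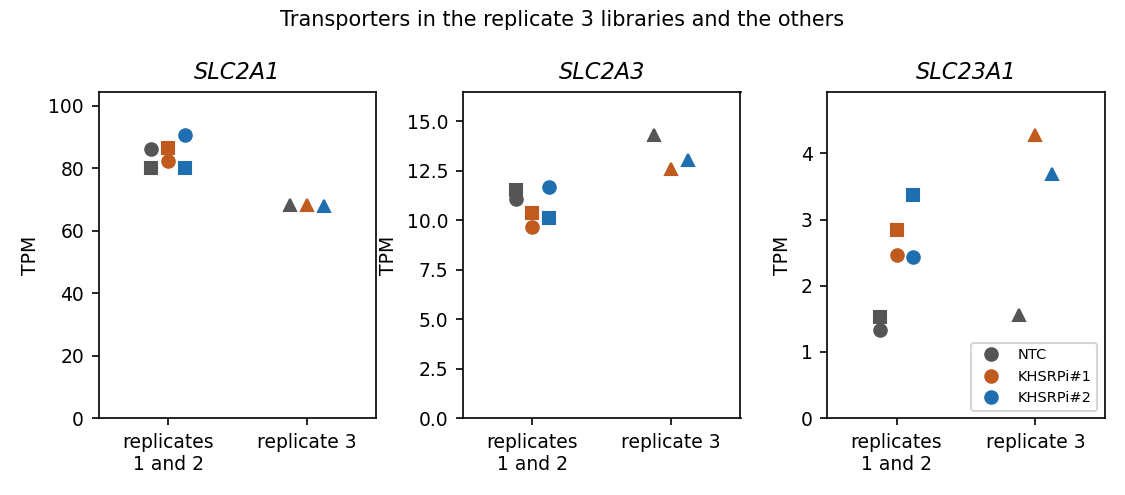
TPM of SLC2A1, SLC2A3 and SLC23A1 in replicates 1 and 2 (circles and squares) and in replicate 3 (triangles) of the 3 groups; each axis starts at 0. Replicate 3 is lowest in SLC2A1, at 67.9 to 68.2 TPM, and highest within each group in SLC2A3 and SLC23A1.

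GSTO1, whose product reduces dehydroascorbate with glutathione, was steady across the libraries. It was at 118, 119 and 126 TPM in NTC, at 125, 120 and 120 TPM in KHSRPi#1, and at 118, 120 and 125 TPM in KHSRPi#2. The groups overlapped, and the coefficient of variation over all 9 libraries was 2.65%. The log2 fold change was 0.01 (95% interval -0.08 to 0.10, limma adjusted p = 0.969, and 0.902 with the replicate 3 term), an interval that leaves out a change of the size seen for SLC23A1. Of the tested members GSTO1 had the narrowest interval.

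GSTO2, the neighbouring gene on chr10 with a gap of 1414 bases, was close to the limit of detection and below the mean of 1 TPM needed for limma. It was at 0.281, 0.0953 and 0.385 TPM in NTC, at 0.0706, 0.169 and 0.330 TPM in KHSRPi#1, and at 0.245, 0.144 and 0.508 TPM in KHSRPi#2. The groups overlapped, and replicate 3 was the highest in each. These values fit 2 to 15 reads per library, 64 in all, and the exact permutation test gave p = 0.929.

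KHSRP is known to bind AU-rich elements, so the 3' UTRs of the members were searched for their core letters, ATTTA, on the transcript strand (GENCODE 29, 1 transcript a gene, taken by its APPRIS class and then its coding length). SLC23A1 holds 0 matches in 455 bases; of the 932 tested genes whose 3' UTR has 80% to 120% of that length, 50.5% hold at least 1. SLC23A2 holds 8 in 4616 bases (98.7% of 3' UTRs of like length hold at least 1) and SLC2A3 holds 3 in 2183 bases (92.7%). SLC2A1 holds 1 in 1666 bases (87.7%) and SLC23A3 holds 1 in 143 bases (20.6%). GSTO1 and GSTO2 hold 0 (7.55% and 18.8%). The median number in 3' UTRs of like length is 1 for SLC23A1, 10 for SLC23A2, 5 for SLC2A3 and 3 for SLC2A1. It is 0 for SLC23A3, GSTO1 and GSTO2. The longer form TTATTTATT, which contains the core letters, occurs at 1 place in these 3' UTRs, in SLC2A3. It occurs in 8.63% of all 9710 3' UTRs searched and in 10.8% of those of like length to SLC2A3. The matches of the genes with 3 or fewer are shown, on GRCh38, with the ATTTA letters in capitals, so that the members with the motif can be read beside their values above:
SLC2A3 match 1, chr12:7920929-7920953, minus strand: cttgagttttATTTAttttatcctc
SLC2A3 match 2, chr12:7920812-7920836, minus strand: tgatggaaatATTTAtttttttaag
SLC2A3 match 3, chr12:7920685-7920709, minus strand: tgcaataagaATTTAgggagaaatg
SLC2A1 match 1, chr1:42926276-42926300, minus strand: gatgcaagatATTTAtatatatttt
SLC23A3 match 1, chr2:219161867-219161891, minus strand: gccctggttaATTTAgccctaactc
The first SLC2A3 match is the one inside the longer form. A match is a description of letters; binding was not measured here, and nothing follows from it about KHSRP at these genes.

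Genes of related families and functions were taken from lists. Of all tested genes, 0.0823% were called without the replicate 3 term and 1.76% with it, so a short list without a call is common. Of the 6 other SLC2A hexose transporter genes that were tested, none was called in either fit; SLC2A6 was the most abundant at 9.77 TPM, and SLC2A8 had the smallest p, with a log2 fold change of -0.17 (limma adjusted p = 0.735). Of 14 other genes listed for reduction of dehydroascorbate or the ascorbate radical, none was called in either fit. They encode thioredoxins, glutaredoxins, protein disulfide isomerases and cytochrome b5 and b561 proteins, and not all reduce these substrates. TXN, thioredoxin, was the most abundant at 1110 TPM, and CYB561A3, a lysosomal ascorbate-dependent reductase gene, had the smallest p, with a log2 fold change of 0.16 (limma adjusted p = 0.550). The median log2 fold change of the 14 was 0.03, beside 0.02 over all tested genes.

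Genes that supply glutathione and NADPH, the electron donors of dehydroascorbate reduction, gave 0 calls of 10 without the replicate 3 term and 1 with it. That gene was ME1, cytosolic malic enzyme, which averaged 18.0 ± 2.04 TPM in NTC (SD, n = 3) and 21.6 ± 0.907 TPM over the knockdown libraries (SD, n = 6). Its log2 fold change was 0.26, with a limma adjusted p of 0.394 without the term and 0.0495 with it. TALDO1, transaldolase, was the most abundant at 386 TPM. The list's median log2 fold change was 0.04. Of 11 other glutathione transferase genes that were tested, 0 were called without the term and 1 with it: GSTZ1, maleylacetoacetate isomerase, at 10.1 ± 1.13 TPM in NTC and 13.2 ± 2.02 TPM over the knockdown libraries, for which the log2 difference was 0.35 (limma adjusted p = 0.516 without and 0.00892 with the term). GSTP1 was the most abundant at 984 TPM, and the list's median was 0.02. These shares stand beside the 1.76% of tested genes called with the term.

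Among 11 regulators known for the transporter genes, 8 were tested and none was called in either fit. MYC, which is known to raise GLUT1 expression, was the most abundant at 199 TPM, and SP3, a GC-box factor, had the smallest p, with a log2 fold change of 0.07 (limma adjusted p = 0.827). Of the 11 tested plasmacytoid dendritic cell markers, 0 were called without the replicate 3 term and 4 were called higher with it: CLEC4C, TCL1A, GZMB and IRF7. The same fit called SLC23A1, and it called 1.76% of all tested genes. JCHAIN was the most abundant at 2948 TPM and was called in neither fit, and TCL1A had the smallest p without the term (limma adjusted p = 0.310, and 0.0275 with it). GZMB, granzyme B, averaged 41.2 TPM in NTC and 83.5 TPM over the knockdown libraries, for which the log2 difference was 0.99 (limma adjusted p = 0.310 without the term and 8.6e-08 with it). The part of these markers in the SLC23A1 result was not tested.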

How the data were processed

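Expression values are TPM, as the authors deposited them: a single table with 1 row per symbol, in which each of the 9 columns sums to 1000000. Per the labels' protocols, RNA was column-purified (NucleoSpin RNA Plus XS), and the library entry reads Roche Kapa. The submitters' processing notes name hg38; the sources used here do not give the aligner, counter, annotation or use of strand. Groups and replicate numbers came from the sample titles. No label ties the replicates to separate cultures; the p-values therefore reflect the spread between these libraries alone, which may be technical.

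The 10939 genes whose TPM averaged 1 or more (among them 6 of the 7 members) entered a two-sided limma test (version 3.58.1, R 4.3.3, trended eBayes) on log2(TPM + 1) in 1 fit of all groups, with Benjamini-Hochberg adjustment over all tested genes and calls at an adjusted p under 0.05. A count model was not used, since TPM holds no totals of reads; relative depth, from the spacing of low TPM values, ran from 0.980 to 1.83 times NTC replicate 1. Exact permutation tests, two-sided, compared TPM between 6 and 3 libraries over all 84 ways of dividing them; the smallest p for one order of the groups is 0.0119. Python 3.11.15 with numpy 2.4.6, pandas 2.3.3, scipy 1.17.1 and matplotlib 3.10.9 did the rest. Loci and 3' UTRs are from GENCODE 29, promoter sequences from RefSeq, which matched 5 members.

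The members and lists were chosen with earlier results of these data known, as was the replicate 3 term. Genes named are the 7 members, KHSRP, and of each other list those called in either fit, the most abundant and the one with the smallest p; for each member the 3 genes with the highest Pearson r; and neighbours within 50000 bases. Some listed genes are not reported here. The markers listed at 0, or present for another cell type, were named after their values were seen. Alternatives were pseudocounts of 0.1 and 5, no filter, a mean TPM of at least 5, quantile normalization, median-ratio rescaling, the replicate 3 term, a replicate block, replicates 1 and 2 only, fits of only the groups compared, and leaving out each library.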

Additional observations from a re-analysis of the deposited data

How the results depend on the processing

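SLC23A1 was higher in knockdown under all 26 alternatives, with log2 fold changes of 0.33 (pseudocount 5) to 1.03 (pseudocount 0.1) and limma adjusted p-values of 0.00616 to 0.621. It was called only with the replicate 3 term (0.74, limma adjusted p = 0.00616) or a replicate block. Leaving out each library moved its estimate between 0.63 and 0.81; without the term it was called in 0 of 9 such fits, and with the term in 8 of 9, the exception being the fit without NTC replicate 3 (0.63, limma adjusted p = 0.0621). Without the 1 TPM filter no member was called for the mean of both knockdown groups, and SLC23A1 had a limma adjusted p of 0.321. A mean TPM of at least 5 leaves SLC23A1 and SLC23A3 untested.

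The replicate numbers were not taken as pairs: deviations from the group means correlated at 0.622 to 0.628 for replicate 3, but at 0.0398 to 0.324 for same-numbered libraries of replicates 1 and 2. With the replicate block SLC23A1 had a log2 fold change of 0.74 (limma adjusted p = 0.00643), and calls became 152 for the mean of both groups, 54 for KHSRPi#1, 91 for KHSRPi#2 and 1 between the knockdown groups, with 1 member, SLC23A1, called in each contrast against NTC.

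Counts of called genes depended on the processing. Against 9, 6, 6 and 0 calls for the mean, KHSRPi#1, KHSRPi#2 and the difference between the knockdown groups, the replicate 3 term gave 192, 74, 88 and 0, with 1 member called in each contrast against NTC. Replicates 1 and 2 only gave 14 for the mean and 1 between the knockdown groups. Fits of only the groups compared gave 2, 3 and 1 for KHSRPi#1, KHSRPi#2 and the difference, and no filter gave 1 for the difference. Leaving out 1 library without the term gave 3 to 7 calls for the mean, 2 to 4 for KHSRPi#1, 3 to 6 for KHSRPi#2 and 0 to 1 between them, with 0 members called. With the term it gave 34 (without NTC replicate 3) to 202 (without NTC replicate 2) for the mean, 7 (without KHSRPi#1 replicate 3) to 69 (without KHSRPi#2 replicate 2) for KHSRPi#1, 27 (without NTC replicate 3) to 138 (without NTC replicate 2) for KHSRPi#2 and 0 to 2 between them, with 0 to 1 members called against NTC. For the mean, leaving out 1 library without the term gave 3 calls without NTC replicate 2 or 3, 4 without KHSRPi#1 replicate 1 or 2 or KHSRPi#2 replicate 1 or 3, and 5 without KHSRPi#2 replicate 2. The cause was not tested.

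Estimates near 0 changed sign. SLC2A1 was at -0.0022 under median-ratio rescaling and between -0.074 and 0.092 when libraries were left out. GSTO1 was at -0.011 under median-ratio rescaling, -0.0035 under quantile normalization and between -0.0083 and 0.039 when libraries were left out. SLC23A3 ran from -0.19 to 0.043 and GSTO2 from -0.11 to 0.062 over the libraries left out. The SLC23A1 difference between the knockdown groups was -0.0021 with pseudocount 5, -0.019 under median-ratio rescaling and -0.042 under quantile normalization, and -0.13 to 0.18 when libraries were left out. SLC2A3 ran from -0.19 to -0.017 over the libraries left out. The replicate 3 difference of SLC23A1 ran from 0.15 (pseudocount 5) to 0.41 and was called in 4 of 14 alternatives; those of SLC2A1 and SLC2A3 kept their sign and were called in all 15 alternatives, which were added after seeing the data. Low read numbers limit SLC23A1, SLC23A3 and GSTO2.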

Other observations

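Over the 9 libraries SLC2A1 and SLC2A3 moved in opposite directions (Pearson r -0.72 on log2(TPM + 1), a description over libraries that share the replicate 3 offset). The genes that followed SLC2A1 most closely were USP5, LRRC47 and NOC2L (all at r 0.98), and those that followed SLC2A3 were SLITRK5 (0.99), ATXN2 (0.98) and HCG11 (0.98). SLC23A3 was followed by MIR193BHG (0.95), FAM204A (0.93) and THTPA (0.91), and GSTO1 by RFWD2 (0.88), TMEM186 (0.87) and LINC01560 (0.86).

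The replicate 3 libraries also differed in genes of the other lists, not all of which act on dehydroascorbate. Of the 6 other tested hexose transporter genes, 1 was called higher and 2 lower in replicate 3, among them SLC2A6 at -0.31 (limma adjusted p = 0.00493). Of 14 other reductase genes, 1 was called higher and 5 lower, and of 11 other glutathione transferase genes, 7 were called higher and 0 lower, in a contrast that called 30.3% of the tested genes. MYC was 0.25 higher in replicate 3 (limma adjusted p = 0.000418).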
